A study of Mus musculus with 12 samples.

Results

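The 10 genes described here encode hormone precursors and marker proteins of enteroendocrine cells, the scattered hormone-secreting cells of the gut lining. They are Insl5, Gcg, Pyy, Sct, Cck, Nts, Sst, Tph1, Chga and Chgb, and they were taken by symbol from the 54532 genes of the deposited expression table. All 10 symbols matched a row. The study profiled mRNA of colon tissue from wild-type C57BL/6J mice in 4 groups of 3 samples, with no further allele in any group. The groups were a diet labelled CD, which the labels do not spell out, a high-fat diet labelled HFD, and each of these diets with 2% DSS, called CD+DSS and HFD+DSS below. Dextran sulfate sodium (DSS) in drinking water is a common means of injuring the lining of the rodent colon. The labels give no age, sex or duration of feeding, nor whether each sample was a separate mouse. The p-values below therefore measure the spread between these samples, which may be technical. Values are FPKM, fragments scaled to gene length and to the size of the library, a unit in which levels of different genes can be compared. A library held 14.7e6 to 17.9e6 fragments over genes.

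Enteroendocrine cells arise from the same stem cells as the other epithelial cells of the gut and release peptides or serotonin into blood and tissue when nutrients, bacterial products or irritants reach them. In the colon the L cells make the hormones of Gcg, Pyy and, toward the rectum, Insl5, and enterochromaffin cells make serotonin through Tph1. D cells make somatostatin from Sst. Chga and Chgb encode granins, acidic proteins of the granules in which these products are stored. Sst, Nts, Cck and the granins are also made by neurons, which the colon wall contains.

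Every member was detected in every library, and most varied widely between libraries of the same group. Pyy ranked first among the 10 genes by FPKM in 7 of the 12 libraries, Insl5 and Chgb in 2 each and Sst in 1. Cck was among the 2 lowest in all 12 libraries and Tph1 in 10 of them. The summed FPKM of the 10 genes ranged from 144 to 444 over the libraries, both in DSS groups (CD+DSS from 144 to 311, HFD+DSS from 306 to 444). Insl5 differed by 53.0-fold between its highest and lowest library, Nts by 22.9-fold and Sst by 9.47-fold. The remaining genes differed by 2.79-fold (Chga) to 6.23-fold (Cck). The SD of log2(FPKM + 1) within groups was 1.49 for Insl5, 1.03 for Nts and 0.84 for Sst, against a median of 0.26 over the 14179 genes tested. For 8 of the 10 members, all but Tph1 and Cck, it lay in the top 10% of tested genes.

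**Figure D1:**
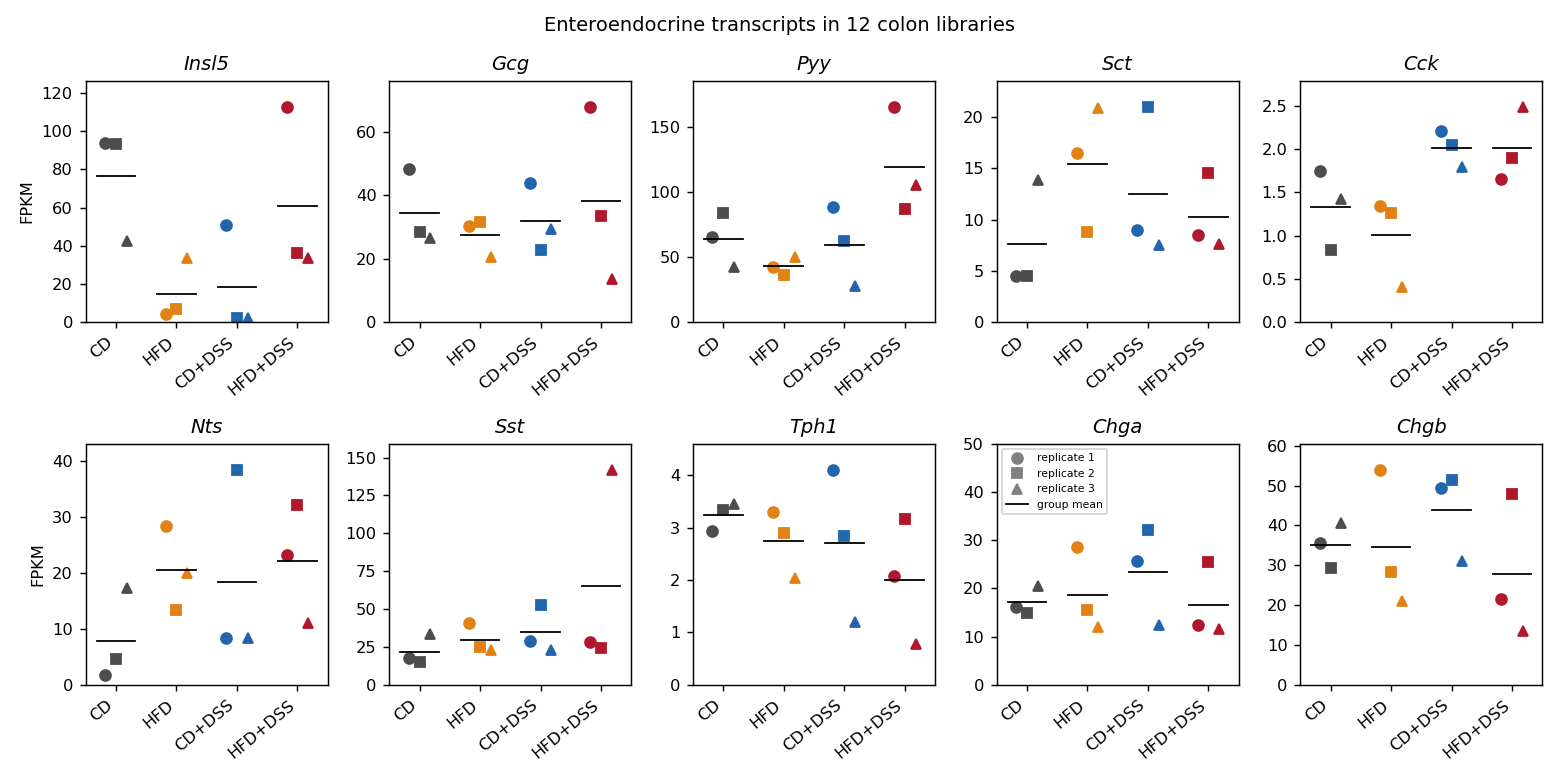
FPKM of the 10 genes in each of the 12 libraries, by group (CD, HFD, CD+DSS, HFD+DSS); symbols mark the replicate number and the bar the group mean. Insl5 was split within HFD and within CD+DSS, Pyy was higher in all 3 HFD+DSS libraries than in the HFD libraries, and Sst was at 142 in HFD+DSS replicate 3.

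No member passed the test in any comparison. The test was limma's moderated test on log2(FPKM + 1) across the genes that reached FPKM 1 in 3 or more libraries, with Benjamini-Hochberg adjustment over 14179 genes and a threshold of 0.05; all 10 members passed the filter. Over all genes, 0.0846% were called for DSS under CD, 0.339% for DSS under HFD and 2.74% for DSS averaged over the diets. For HFD against CD without DSS, for HFD against CD with DSS, for HFD averaged over DSS and for the interaction of diet and DSS it was 0%. Voom on recovered fragments also called 0 members. At an unadjusted p under 0.05, 10 of the 70 values (10 genes in 7 comparisons) came up: Insl5 in 4 comparisons, Pyy in 3, Cck in 2 and Nts in 1. Over all genes the share of values under 0.05 was 15.2% for DSS under CD, 13.6% for DSS under HFD, 23.5% for DSS averaged over the diets, 4.15% for HFD without DSS, 6.62% for HFD with DSS, 4.67% for HFD averaged over DSS and 5.42% for the interaction. The members' median DSS difference averaged over the diets was 0.09 and that of all genes 0.01; 7 of the 10 were positive, as were 50.9% of all genes.

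The promoters of Insl5, Gcg and Pyy are shown because these hormones share a cell type but had different ranges over the libraries. The stretches lie in the 250 bases before each gene's start in RefSeq (GRCm38.p6), minus strand, 5′ to 3′. Capitals mark the E-box CAGATG, a site type of basic helix-loop-helix factors such as those that specify endocrine cells, and the TATA box core TATAAA on either strand. For Insl5 only the part outside the GENCODE gene is printed.
Insl5, chr4:103026843-103026978: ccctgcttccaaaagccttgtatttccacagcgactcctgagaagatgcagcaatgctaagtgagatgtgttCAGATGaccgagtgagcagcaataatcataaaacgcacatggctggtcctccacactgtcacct
Gcg, chr2:62483654-62483903: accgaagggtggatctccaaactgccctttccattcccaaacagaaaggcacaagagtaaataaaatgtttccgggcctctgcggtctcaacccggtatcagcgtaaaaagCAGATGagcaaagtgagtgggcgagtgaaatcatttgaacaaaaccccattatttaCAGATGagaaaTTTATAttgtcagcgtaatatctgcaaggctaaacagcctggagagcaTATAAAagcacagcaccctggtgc
Pyy, chr11:102107833-102108082: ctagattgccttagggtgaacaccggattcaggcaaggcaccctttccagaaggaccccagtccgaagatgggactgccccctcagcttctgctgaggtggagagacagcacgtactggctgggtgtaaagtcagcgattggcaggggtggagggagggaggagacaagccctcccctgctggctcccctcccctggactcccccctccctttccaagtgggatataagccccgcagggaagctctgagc

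In the full windows, searched on both strands, Insl5 held CAGATG 178 bases before its start, TATAAA 49 bases before it and the GATA core AGATAA at 92, 72 and 28 bases. Gcg held CAGATG at 139 and 83 bases, and Pyy held none of the motifs searched. Over all 10 members CAGATG was in 4 and AGATAA in 3, where 14.4% and 9.99% of 32851 promoters of the same length hold them. TGACGTCA, the cAMP response element, was in Sst (48 bases before the start) and Chgb (72 bases), against 1.55% of all promoters. The RefSeq start lies 114 bases from the GENCODE start for Sst and 364 for Chgb, so both sites fall inside the GENCODE genes. CAATAAA, a core of posterior Hox sites, was in 0 of the 10 members and in 4.20% of all promoters. These matches are of letters in a window and do not show binding.

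Insl5 encodes insulin-like peptide 5, a hormone of L cells of the distal colon that signals through the relaxin family receptor Rxfp4 (ENSMUSG00000066090, mm10 chromosome 4, 103017872 to 103026842). Its FPKM in the CD libraries was 93.7, 93.5 and 42.4 (76.6 ± 29.6, SD, n = 3). In HFD it was at 4.08, 6.81 and 33.4 (14.8 ± 16.2). In CD+DSS it was at 51.0, 2.25 and 2.13 (18.5 ± 28.2). In HFD+DSS it was at 113, 36.3 and 33.4 (60.8 ± 45.1). HFD and CD+DSS each held 1 library near the level of CD and 2 libraries far below it, and HFD+DSS overlapped with CD. The low libraries rested on 22 to 87 fragments, enough to place them: the exact Poisson 95% interval of the lowest, CD+DSS replicate 3, was 1.35 to 3.20 FPKM, which covers counting error only.

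On the log2 scale Insl5 differed by -3.17 ± 1.03 (SE) in CD+DSS against CD, with a limma adjusted p of 0.212. It differed by 2.25 ± 1.03 in HFD+DSS against HFD (adjusted p = 0.371). The DSS differences of the diets thus had opposite signs, and their average was -0.46 ± 0.73. Without 1 library this average ran from -1.13 (without CD+DSS replicate 1) to -0.05 (without HFD replicate 3), and it also moved by over 1.5 times without HFD replicate 1, HFD+DSS replicate 1 or CD+DSS replicate 2 or 3. HFD against CD gave -2.72 ± 1.03 without DSS (adjusted p = 1) and 2.70 ± 1.03 with DSS (adjusted p = 0.736). The Insl5 groups did not overlap in HFD against CD without DSS, where 5.02% of all tested genes were likewise lower without overlap. They overlapped in the other comparisons of groups. The interaction, the DSS difference under HFD minus that under CD, was 5.42 (95% interval 2.23 to 8.61; unadjusted p = 0.00322, adjusted p = 0.560), rank 79 by p of 14179 genes; 5.42% of all genes had an unadjusted p under 0.05 there. In bulk colon, fewer Insl5 cells and less Insl5 mRNA per cell cannot be told apart, and the same holds for every gene below.

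The low Insl5 libraries were those with low Hoxb13 and Hoxd13. Hoxa13, another posterior Hox gene, overlapped: it was at FPKM 1.59 to 16.3 in them and at 7.25 to 24.7 in the other 8. Hoxb13, a Hox gene of the hindmost gut, was at FPKM 0.711 and 0 in HFD replicates 1 and 2 and at 0.0336 and 0.122 in CD+DSS replicates 2 and 3. It was at 19.3 to 62.8 in the other 8 libraries. Insl5 ranged from 2.13 to 6.81 in these 4 libraries and from 33.4 to 113 in the other 8, with no overlap, a split that was noticed after the values were seen and is given as a description. The ranges of the other 9 members overlapped between the same libraries: Gcg was at 22.7 to 31.6 and at 13.6 to 67.8, and Pyy at 27.4 to 62.0 and at 42.7 to 166. Within groups, Insl5 changed by 1.06 ± 0.25 (SE) log2 units for each log2 unit of the mean level of Hoxa13, Hoxb13 and Hoxd13 (unadjusted p = 0.00173, limma adjusted p = 0.622, rank 38 of 14179). Over all genes 0.0423% passed the threshold and 3.67% had an unadjusted p under 0.05. Without CD+DSS replicates 2 and 3, the libraries farthest from the median Hox level, the slope was 0.71 ± 0.29, and over fits that left out 1 library it was 0.67 to 1.24, the lowest without CD+DSS replicate 1. The slopes of the other members ran from -0.42 ± 0.26 (Nts) to 0.26 ± 0.14 (Pyy).

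**Figure D2:**
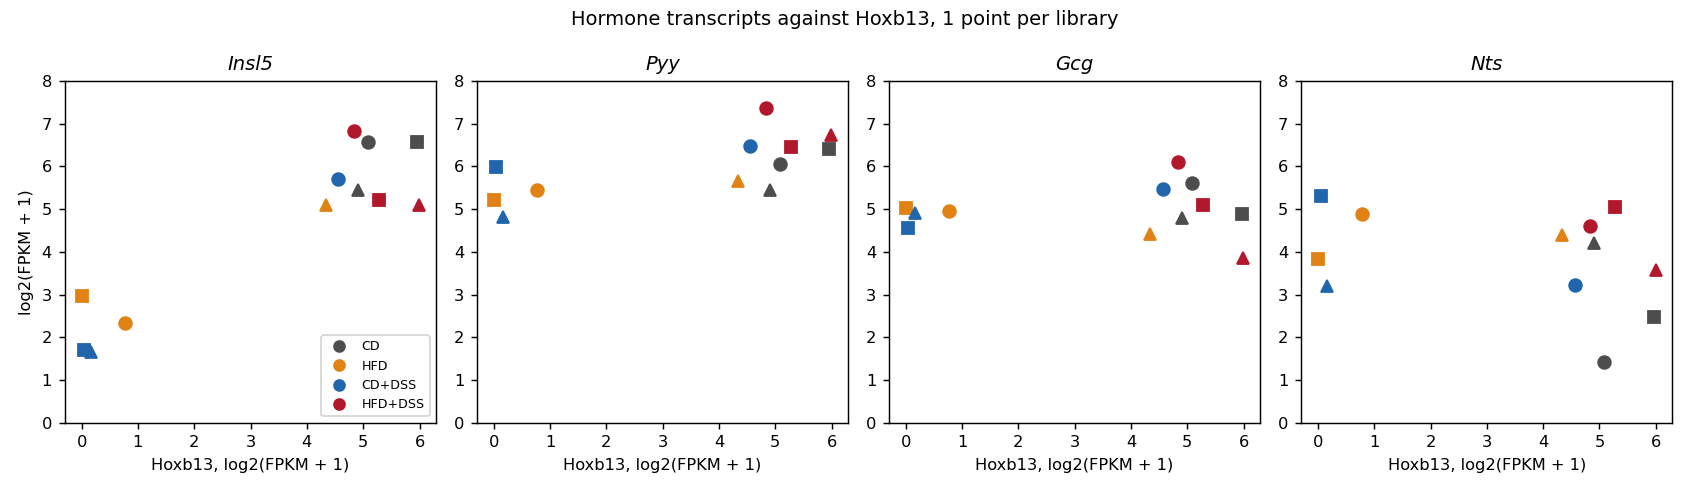
log2(FPKM + 1) of Insl5, Pyy, Gcg and Nts against that of Hoxb13, 1 point per library, coloured by group with the symbols of the replicate numbers. The 4 libraries with Hoxb13 under FPKM 1 hold Insl5 at FPKM 2.13 to 6.81, while their Pyy, Gcg and Nts values overlap with those of the other 8.

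With the posterior Hox level in the fit, the Insl5 differences were smaller. The value was -0.73 ± 0.88 for CD+DSS against CD, -0.69 ± 0.81 for HFD against CD without DSS and 0.18 ± 0.89 with DSS, and the interaction was 0.87 ± 1.43. Without the 4 libraries of low Hoxb13, which leaves HFD and CD+DSS with 1 library each whose spread is assumed to equal that of the others, the interaction was 1.10 ± 1.05 and the difference of HFD+DSS against CD+DSS 0.02 ± 0.74. Hoxb13 was low in libraries of HFD and of CD+DSS and in none of CD or HFD+DSS, so the Hox level and the interaction cannot be told apart in full. The stretch of colon sampled is not named in the labels, and its part in the Insl5 values was not tested.

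**Figure D3:**
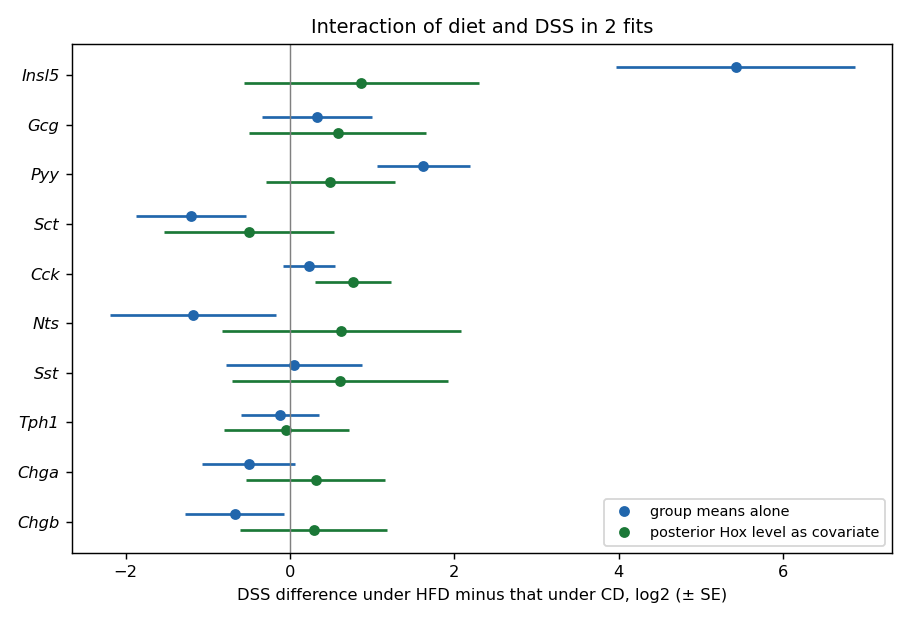
Interaction of diet and DSS (log2, ± SE) for the 10 genes from a fit of group means alone and from a fit with posterior Hox level added. The Insl5 value goes from 5.42 to 0.87 and that of Pyy from 1.62 to 0.49.

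The genes whose log2 levels were most like those of Insl5 over the 12 libraries were Tgm3 (Pearson r = 0.970), Atp12a (0.946), Eno3 (0.926), Hoxb13 (0.923) and Thbs4 (0.919). Tgm3 encodes a transglutaminase of surface epithelia and Atp12a the proton pump of the distal colon. With group means removed the r values were 0.951, 0.937, 0.941, 0.836 and 0.816. Tgm3 ran from FPKM 0.0717 to 343 and Atp12a from 0.295 to 267. The 10 members were left out of this ranking. All of these r values come from the same 12 libraries and are descriptions.

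Gcg encodes proglucagon, from which L cells cut the glucagon-like peptides GLP-1 and GLP-2 (ENSMUSG00000000394, chromosome 2, 62474530 to 62483650). The CD libraries had FPKM 48.3, 28.5 and 26.6 and the HFD libraries 30.1, 31.6 and 20.4. The CD+DSS libraries had 43.8, 22.7 and 29.3, and the HFD+DSS libraries 67.8, 33.4 and 13.6. All 4 groups overlapped, and HFD+DSS held both the highest and the lowest library of the series. The group means were 34.4 ± 12.0, 27.4 ± 6.11, 31.9 ± 10.8 and 38.3 ± 27.4 (SD, n = 3). The DSS difference was -0.11 ± 0.47 under CD and 0.22 ± 0.47 under HFD, with 95% intervals of -1.15 to 0.93 and -0.82 to 1.26, so changes of up to about 1 log2 unit in either direction were within the error. Gcg and Insl5 come from related cells, and the ratio of Insl5 to Gcg ran from 0.0728 (CD+DSS replicate 3) to 3.28 (CD replicate 2).

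Pyy encodes peptide YY, an appetite-reducing hormone that L cells release with GLP-1 (ENSMUSG00000017311, chromosome 11, 102106676 to 102107832). Its FPKM was 65.3, 84.1 and 42.7 in CD (64.0 ± 20.7, SD, n = 3) and at 42.5, 36.3 and 49.8 in HFD (42.9 ± 6.77). It was at 88.5, 62.0 and 27.4 in CD+DSS (59.3 ± 30.6) and at 166, 87.2 and 105 in HFD+DSS (119 ± 41.0). The HFD+DSS libraries all lay above the HFD libraries, and replicate 2 of HFD+DSS lay just below the highest CD+DSS library. The DSS difference under HFD was 1.42 (95% interval 0.54 to 2.29; unadjusted p = 0.00438, limma adjusted p = 0.171). Higher values without overlap were found there in 8.82% of all tested genes, and an unadjusted p under 0.05 in 13.6%. Under CD the DSS difference of Pyy was -0.21 ± 0.40 (adjusted p = 0.826). The fitted difference of HFD+DSS from CD+DSS was 1.10 ± 0.40 (adjusted p = 0.732; 6.62% of all genes had an unadjusted p under 0.05, and 9.46% did not overlap, 0 members among them), and the interaction was 1.62 ± 0.56 (unadjusted p = 0.0147, adjusted p = 0.774). Without CD+DSS replicate 3 the fitted difference of HFD+DSS from CD+DSS was 0.63 ± 0.34.

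The slope of Pyy on the posterior Hox level within groups was 0.26 ± 0.14 (limma adjusted p = 1.00). With posterior Hox level in the fit, the DSS difference of Pyy under HFD was 0.89 ± 0.45 and the interaction 0.49 ± 0.78. Without the 4 libraries of low Hoxb13 the difference under HFD was 1.19 ± 0.46. HFD+DSS replicate 1 held the highest Pyy, Gcg and Insl5 of the series. The ratio of Pyy to Gcg had a median of 2.23 and reached 7.77 in HFD+DSS replicate 3, the library with the lowest Gcg.

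**Figure D4:**
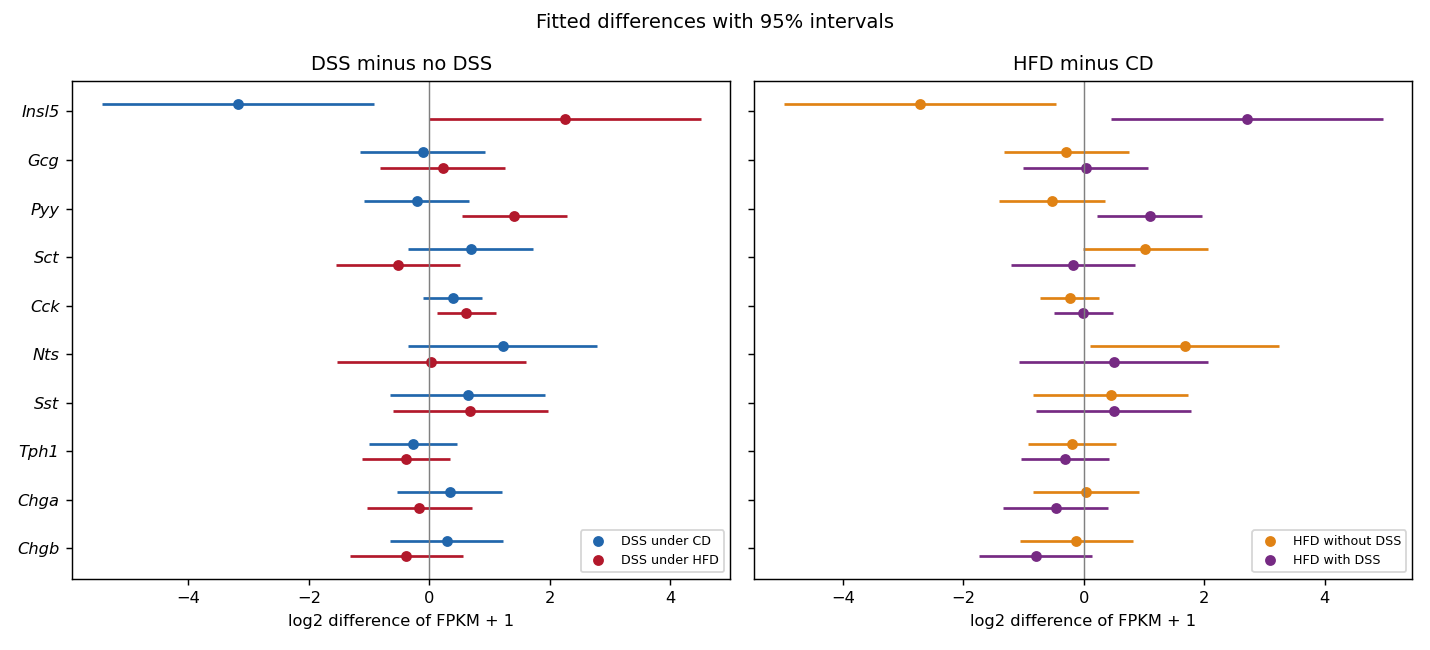
Fitted log2 differences of the 10 genes with 95% intervals, for DSS within each diet (left) and HFD against CD without and with DSS (right). The Insl5 intervals are the widest and change sides, and that of Pyy for DSS under HFD runs from 0.54 to 2.29.

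Nts encodes neurotensin, a peptide of distal endocrine cells and of neurons (ENSMUSG00000019890, chromosome 10, 102481756 to 102490486). Without DSS it stood at FPKM 1.68, 4.54 and 17.3 under CD and at 28.4, 13.4 and 20.0 under HFD. With DSS it stood at 8.38, 38.5 and 8.27 under CD and at 23.2, 32.1 and 11.0 under HFD. CD held the 2 lowest libraries, while its replicate 3 lay within the range of HFD. The fitted difference of HFD from CD was 1.68 ± 0.72 without DSS (unadjusted p = 0.0386, limma adjusted p = 1), and HFD averaged over DSS gave 1.08 ± 0.51 (adjusted p = 1.00). Without CD replicate 1 the difference without DSS was 1.04 ± 0.71. An unadjusted p under 0.05 was found for 4.15% of all genes in that comparison. With posterior Hox level in the fit the value without DSS was 0.87 ± 0.83. The ratio of Nts to Gcg went from 0.0348 in CD replicate 1 to 1.69 in CD+DSS replicate 2.

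Sct encodes secretin, which drives bicarbonate secretion and is made by S cells and by other endocrine cells late in their life (ENSMUSG00000038580, chromosome 7, 141278330 to 141279133). Its levels were FPKM 4.46, 4.54 and 13.9 under CD and 16.5, 8.79 and 20.9 under HFD. With DSS they were 9.02, 21.0 and 7.48 under CD and 8.54, 14.6 and 7.63 under HFD. Like Nts, Sct was lowest in CD replicates 1 and 2 and overlapped between all groups. HFD against CD without DSS gave 1.02 ± 0.47 (unadjusted p = 0.0523), the interaction -1.20 ± 0.67 and DSS averaged over the diets 0.08 ± 0.33 (limma adjusted p = 0.896).

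Cck encodes cholecystokinin, a hormone of the upper small intestine and a neuropeptide (ENSMUSG00000032532, chromosome 9, 121489824 to 121495694). Its FPKM was 1.75, 0.829 and 1.42 in CD and 1.35, 1.26 and 0.400 in HFD. With DSS it was at 2.21, 2.04 and 1.80 under CD and at 1.66, 1.90 and 2.49 under HFD. DSS libraries lay above the others within each diet, with group means of 1.33 ± 0.465, 1.00 ± 0.523, 2.02 ± 0.205 and 2.01 ± 0.428 (SD, n = 3) in CD, HFD, CD+DSS and HFD+DSS. The level was low: 8 to 62 fragments per library, with an exact Poisson 95% interval of 0.173 to 0.788 FPKM in HFD replicate 3. The difference was 0.50 ± 0.16 averaged over the diets (95% interval 0.16 to 0.85; unadjusted p = 0.00847, limma adjusted p = 0.103), where 23.5% of all genes had an unadjusted p under 0.05. It was 0.39 ± 0.22 under CD and 0.62 ± 0.22 under HFD (adjusted p = 0.423 and 0.270), and the latter was 0.38 ± 0.20 without HFD replicate 3. Higher values without overlap were found in 13.7% of all genes under CD and, as given above, in 8.82% under HFD. Without the 4 libraries of low Hoxb13 the averaged difference was 0.79 ± 0.21 (adjusted p = 0.406).

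Sst encodes somatostatin, which inhibits the release of most gut hormones (ENSMUSG00000004366, chromosome 16, 23889573 to 23890958). Without DSS the libraries had Sst at FPKM 17.5, 15.0 and 33.2 (CD) and 40.7, 25.2 and 22.6 (HFD). With DSS they had it at 28.8, 52.4 and 23.0 (CD+DSS) and 28.5, 24.3 and 142 (HFD+DSS). HFD+DSS replicate 3 stood far above the other 11 libraries, and the groups overlapped without it. The DSS difference averaged over the diets was 0.66 ± 0.41 (limma adjusted p = 0.357), and 0.26 ± 0.27 without that library. The same library had the highest summed FPKM of 15 enteric neuron markers, 234, against 42.6 to 82.6 in the other 11, and of 8 smooth muscle markers, 3056 against 644 to 1772. All 15 neuron markers were above 0 in every library. In HFD+DSS replicate 3 the neuropeptide genes Gal and Penk were at 62.8 and 43.1, with 6.04 to 22.8 and 6.43 to 21.3 elsewhere. Not all such genes stood apart there. Vip, also a neuropeptide gene, was at 15.9, between its levels in CD+DSS replicate 2 (5.25) and CD replicate 2 (17.5). Tac1, the substance P precursor, was at 18.5, below HFD+DSS replicate 1 but above the remaining libraries. The part of nerve or muscle tissue in the Sst level of HFD+DSS replicate 3 was not tested.

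**Figure D5:**
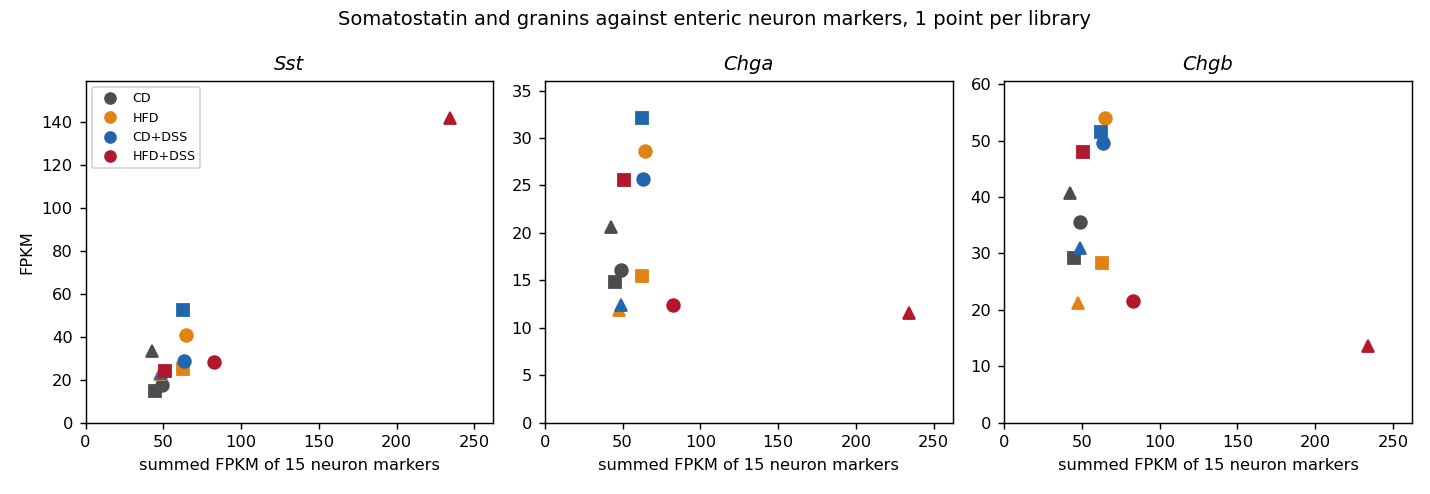
FPKM of Sst, Chga and Chgb against the summed FPKM of 15 enteric neuron markers, 1 point per library, coloured by group. HFD+DSS replicate 3 lies at 234 on the horizontal axis, with Sst at 142 and the lowest Chga and Chgb of the series.

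Tph1 encodes the enzyme that limits serotonin synthesis in enterochromaffin cells (ENSMUSG00000040046, chromosome 7, 46644641 to 46672537). Its FPKM was 2.93, 3.33 and 3.45 in CD (3.24 ± 0.270, SD, n = 3) and at 3.30, 2.90 and 2.04 in HFD (2.75 ± 0.643). It was at 4.11, 2.83 and 1.21 in CD+DSS (2.72 ± 1.46) and at 2.07, 3.16 and 0.772 in HFD+DSS (2.00 ± 1.20). The CD libraries were close together, and the DSS groups spread to both sides of them or below. DSS averaged over the diets gave -0.33 ± 0.24 (95% interval -0.85 to 0.19; limma adjusted p = 0.420). The value was -0.16 without HFD+DSS replicate 3 and likewise -0.16 without CD+DSS replicate 3. Tph1 is also made by mast cells. Of 11 mast cell markers 4 were tested and 0 called; their summed FPKM was 15.3 to 19.6 without DSS and 15.9 to 37.8 with it, and Cpa3 stayed under 1 in all libraries. Mcpt1, a protease of mucosal mast cells, differed by 1.37 ± 0.37 with DSS (limma adjusted p = 0.0696), against -0.33 for Tph1. Among the DSS libraries both genes were lowest in HFD+DSS replicate 3. Tph1 was next lowest in CD+DSS replicate 3, where Mcpt1 was at 9.32. Mcpt2, a second such protease, differed by 1.03 ± 0.29 (adjusted p = 0.0789). The other 2 of the 4 tested markers had negative differences. Kit, the stem cell factor receptor, differed by -0.58 ± 0.19 (limma adjusted p = 0.120), and Cma1, a chymase, by -0.11 ± 0.44. In CD, Kit made up most of the summed marker FPKM, with a mean of 11.4 of 18.8. The part of mast cells in the Tph1 level was not tested.

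Chga encodes chromogranin A (ENSMUSG00000021194, chromosome 12, 102554969 to 102565028). Without DSS its levels were FPKM 16.1, 14.8 and 20.6 (CD) and 28.7, 15.5 and 11.9 (HFD), and with DSS 25.6, 32.1 and 12.4 (CD+DSS) and 12.4, 25.6 and 11.5 (HFD+DSS). Chgb, chromogranin B (ENSMUSG00000027350, chromosome 2, 132781278 to 132795079), had levels of 35.6, 29.3 and 40.6 (CD) and 54.1, 28.3 and 21.2 (HFD), and with DSS of 49.5, 51.4 and 31.0 (CD+DSS) and 21.6, 48.0 and 13.6 (HFD+DSS). The granins varied in parallel from library to library, with a ratio of Chgb to Chga between 1.18 and 2.49 (median 1.88) and the lowest ratio in HFD+DSS replicate 3. All groups overlapped for both genes. The DSS difference averaged over the diets was 0.09 ± 0.28 for Chga and -0.04 ± 0.30 for Chgb. HFD against CD with DSS gave -0.80 ± 0.43 for Chgb (unadjusted p = 0.0890) and -0.47 ± 0.40 for Chga. Neither granin tracked Insl5 library by library. In HFD replicate 1 and CD+DSS replicate 2 Insl5 was at 4.08 and 2.25. Chga was at 28.7 and 32.1 in them, the highest values of the series, and Chgb at 54.1 and 51.4. In HFD replicate 2 and CD+DSS replicate 3, where Insl5 was also low (6.81 and 2.13), Chga was at 15.5 and 12.4. Chgb was at 28.3 and 31.0 in these.

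The 10 members were left out of the following rankings. The remaining genes most like Chga over the 12 libraries were Mgat3 (r = 0.891), 9230116L04Rik (0.881), Gm45552 (0.871), Kcnk5 (0.868) and Mtmr14 (0.865). Those most like Tph1 were Ighv1-81 (0.910), Plekhg1 (0.895), Igkv5-39 (0.872), Slamf9 (0.869) and Kif21b (0.867); Ighv1-81 and Igkv5-39 are segments of antibody genes. Those most like Pyy were Slc28a3 (0.930), Gm11430 (0.905), Cyp2d10 (0.897), Ckmt1 (0.887) and Muc1 (0.881). Each list is the top 5 among the 14179 tested genes, less the members and genes without a symbol. It rests on 12 points and is a description.

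Genes that act beside the members were read from fixed lists. Of 22 transcription factors of endocrine differentiation 9 were tested and 0 passed in any comparison; Neurog3, the factor that commits a progenitor to the endocrine fate, was between 0.0443 and 0.760. Its median member moved by -0.06 with DSS averaged over the diets, where the median of all genes was 0.01. The largest HFD difference by p was that of Prox1 (0.35 ± 0.11, limma adjusted p = 0.873). Of 15 other gut peptide genes 7 were tested and 0 passed. Penk, the enkephalin precursor, differed by 0.89 ± 0.27 with DSS (adjusted p = 0.0937). Tac1, the substance P precursor of enterochromaffin cells and neurons, differed by 1.08 ± 0.34 (adjusted p = 0.103) and was at 56.0 in HFD+DSS replicate 1, 3.14 to 18.5 in the other 11 libraries. Gip, the incretin of the upper small intestine, was at 0 in all 12 libraries.

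Of 21 genes of prohormone processing and secretory granules 18 were tested, and 1 fell with DSS averaged over the diets. Pcsk1, the convertase that cuts prohormones such as proglucagon, was at FPKM 5.98, 3.67 and 5.48 in CD and 6.85, 7.66 and 6.54 in HFD. With DSS it was at 4.27, 3.79 and 2.83 under CD and at 4.05, 4.17 and 4.10 under HFD. Pcsk1 fell by 0.51 on the log2 scale (SE 0.12; limma adjusted p = 0.0481), and the groups overlapped through CD replicate 2. The call stood at the threshold: it was lost in 18 of 21 alternatives, among them no filter on low values (adjusted p = 0.101), epithelial level as a covariate (0.281) and 11 of the 12 fits that left out a library (0.0625 to 0.143). The next genes of this list by p, Scg5 and Cpe, were at 0.41 ± 0.16 and -0.53 ± 0.21 (adjusted p = 0.156 and 0.167).

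Of 18 receptors and channels by which endocrine cells sense the lumen 6 were tested, and 1 rose with DSS averaged over the diets. Ffar4, a receptor for long-chain fatty acids, had FPKM 15.8, 11.1 and 14.7 in CD and 13.6, 7.81 and 15.0 in HFD. With DSS it had 36.1, 68.1 and 32.6 under CD and 27.0, 35.0 and 21.9 under HFD. All 6 DSS libraries lay above all 6 others, as was so for 2.17% of all tested genes, and the difference was 1.37 ± 0.22 (limma adjusted p = 0.0118). Ffar4 is not limited to endocrine cells. The summed FPKM of 10 pan-epithelial markers was 4505 to 6759 without DSS and 6173 to 10270 with it, and all 10 had positive DSS differences (median 0.42, none called). With epithelial level in the fit Ffar4 differed by 0.66 (adjusted p = 0.317), and without the 4 libraries of low Hoxb13 by 1.08 (adjusted p = 0.305). The free fatty acid receptor Ffar2 and the ion channel Trpa1 had HFD differences of -0.31 ± 0.20 and -0.13 ± 0.19 (adjusted p = 1 for both).

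Of 9 enterochromaffin genes, which include Tph1, Chga and Chgb, 6 were tested, and 1 rose with DSS. Gch1, which makes the cofactor that Tph1 and other hydroxylases need, had FPKM 4.83, 5.24 and 5.54 in CD and 3.16, 1.98 and 3.42 in HFD. With DSS it had 8.53, 9.80 and 9.11 under CD and 8.29, 7.45 and 6.97 under HFD. All DSS libraries lay above all others, as was so for 2.17% of all tested genes. The difference of Gch1 was 0.94 ± 0.11 averaged over the diets (limma adjusted p = 0.00363) and 1.17 under HFD (adjusted p = 0.0172). Of all tested genes 2.74% and 0.339% were called in these comparisons. The call under HFD was lost in 8 of 22 alternatives: the 2 groups alone, the replicate block, the Hox and epithelial covariates, without the 4 libraries of low Hoxb13, and without HFD replicate 1 (0.0570), HFD+DSS replicate 1 (0.0679) or replicate 2 of HFD (0.0590), each a limma adjusted p. The averaged call was lost with epithelial level in the fit (0.77, adjusted p = 0.144) and without the 4 libraries of low Hoxb13 (0.79, adjusted p = 0.283). Gch1 is made in immune and endothelial cells as well, and the other enterochromaffin genes did not pass. Ddc, the enzyme of the last step to serotonin, differed by -0.17 ± 0.21.

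Of 26 genes that receive or remove these hormones and serotonin 12 were tested and 0 passed in any comparison, and several receptors were near 0. Rxfp4, the receptor of the Insl5 peptide, reached at most 0.273 and was at 0 in 6 libraries. Glp1r reached at most 0.460. Htr4, a serotonin receptor, differed by -0.71 ± 0.21 with DSS (limma adjusted p = 0.0882), and Npy2r, a receptor of peptide YY, by 0.46 ± 0.13 with HFD (adjusted p = 0.827), at FPKM 0.132 to 1.52. Of the neuron markers 13 were tested and 0 passed, and all 13 had positive differences with DSS (median 0.38) and with HFD (median 0.47), as did 50.9% and 44.1% of all genes. HFD+DSS replicate 3, whose neuron markers stood apart, enters both values. Without it 10 of 13 were positive with DSS (median 0.16) and 12 with HFD (median 0.19), with 0 called and 51.6% and 47.8% of all genes positive. Pancreatic markers were at or near 0: 0 of 8 were tested, Ins1, Ins2 and Prss1 were at 0 in all 12 libraries, and the summed FPKM was 0.0171 to 0.410.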

How the data were processed

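The authors deposited 1 table of FPKM values per gene and library, with genes named by Ensembl identifier. Per the submitters' processing notes the build was mm10, and per the labels' protocols the libraries came from a SMARTER mRNA-Seq kit. Aligner, counter, annotation and strand setting were not given in the sources used here. Symbols, positions and exon lengths came from GENCODE M21, in which 54409 of 54532 identifiers had a symbol and no other gene overlapped a member. Multiplied by exon length, 97.0% to 97.2% of the values came out as whole fragments within 0.1, which gave the depth and the counting intervals. Median ratios between libraries were already equal in the FPKM as deposited.

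log2(FPKM + 1) was fitted with limma 3.58.1 (R 4.3.3; 1 mean per group, trend), with fold changes understated for low genes. The fit was tested on simulated data in which every gene had the same spread beyond counting error. That spread was smaller than that of most members, so the simulation does not cover them. Alternatives were other pseudocounts (0.1, 0.5), no filter, voom on recovered fragments, fits of 2 groups, a replicate block, posterior Hox and epithelial covariates, and leaving out libraries. Leaving out the 4 libraries of low Hoxb13, scaling voom to total fragments and the slope without 2 libraries were added after seeing the data. All 10 members were named. Of the other lists, the 3 smallest p values for DSS and for HFD and every called gene could be named. For 4 members the 5 most correlated genes outside the 10 members could be named. Genes at or near 0, Gal and Vip were named after their values were seen. Members and lists were chosen with earlier results of these data known.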

Additional observations from a re-analysis of the deposited data

How the results depend on the processing

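In each of the 7 comparisons 0 of 10 members passed under every alternative run; the lowest adjusted p was 0.0696, for Insl5 in CD+DSS against CD without CD+DSS replicate 1 (-4.52 ± 0.76). Some DSS differences averaged over the diets changed sign. With epithelial level as a covariate they were -0.91 for Sct, -0.39 for Nts (0.63 in the fit of group means) and -0.38 for Chga, and without the 4 libraries of low Hoxb13 they were 0.063 for Insl5, -0.31 for Sct, 0.085 for Tph1 and 0.34 for Chgb; the cause was not tested. Over fits that left out 1 library they ran from -0.21 to 0.35 for Gcg, -0.13 to 0.32 for Sct, -0.085 to 0.28 for Chga and -0.28 to 0.15 for Chgb. The number of genes called for DSS averaged over the diets, 389, was 173 without the filter, 17 with the epithelial covariate, 3 without the 4 libraries of low Hoxb13 and 115 to 479 over fits that left out 1 library. Samples with the same replicate number did not deviate together (3 of 18 pairs with r over 0.1, from -0.46 to 0.20). With the replicate block 0 members passed, the adjusted p of Cck for DSS averaged over the diets was 0.153, and 162 genes were called. Gch1 under HFD lost its call in 8 of 22 alternatives, with the replicate block at an adjusted p of 0.0501. Scaling to total fragments moved the median of all genes by less than 0.1. With 3 libraries a group, the 95% interval of Insl5 spans over 4 log2 units in comparisons within 1 diet or 1 DSS state and over 3 in averaged ones, and Cck is limited by its 8 to 62 fragments.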
